A study of Mus musculus with 6 samples.

Results

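Chromatin accessibility was examined at the genes of orphan and adhesion G protein-coupled receptors in mouse microglia that had lost the microRNA miR-137. The genes were taken by symbol from the RefSeq annotation of the mouse assembly GRCm38.p6 (mm10): all protein-coding genes whose symbol begins with Gpr and a digit or with Adgr, except Gpr34. This gave 101 of 21887 coding genes, 27 adhesion receptor genes (Adgr) and 74 numbered Gpr genes. An ATAC-seq peak, a stretch where a transposase could cut into open chromatin, was counted for the coding gene whose end lies nearest to its midpoint, up to 100 kb away. Of the 12105 deposited peaks, 11013 were assigned to a coding gene and 51 of these to 32 of the 101 receptor genes.

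The series holds 6 libraries of microglia sorted from the brain of C57BL/6J mice labelled as 8 weeks old, 3 labelled cKO and 3 labelled cWT, each from about 50000 cells. The cKO mice carried Mir137 loxP/loxP with Tmem119-CreERT2, a Cre recombinase that is switched on by tamoxifen in cells that use the microglial gene Tmem119, and the cWT mice carried Mir137+/+ with the same Cre allele. Both genotypes received tamoxifen for 7 days starting at 7 to 8 weeks of age, so the Cre allele and the drug were shared by the controls. The study states 4 mice without saying which library came from which animal. The values used here were 1 list of peaks per genotype, deposited as specific to it, with 8615 cKO-specific and 3490 cWT-specific peaks. The lists hold no value per library, so depth and replicate spread are unknown, no test over samples was possible, and every interval below covers counting error over peaks only.

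G protein-coupled receptors are membrane proteins that change shape when a ligand binds and then activate heterotrimeric G proteins inside the cell. The adhesion receptors carry long extracellular domains that bind matrix or other cells, and most cut themselves at a site near the membrane, which leaves a tethered stretch that can activate the receptor. Many numbered Gpr genes were named before a ligand was known: some now have lipid, proton or metabolite ligands, some remain orphans, and a few encode intracellular membrane proteins that are not classical receptors. Microglia use such receptors to sense damage, acidity and lipids, and Adgrg1 is known for a role in the removal of synapses.

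Of 10 defining microglial genes, 7 had an assigned peak of either list (70.0%, against 27.9% of all coding genes), among them Itgam with 5 cKO-specific and 1 cWT-specific peaks, P2ry12 with 3 and 2, and Siglech with 2 and 1. Cx3cr1, Csf1r and Aif1 had 0 peaks in either list. Among markers of other cells 1 of 5 neuronal, 4 of 5 astrocyte, 3 of 6 oligodendrocyte lineage, 4 of 5 vascular and 0 of 5 lymphocyte genes had a peak. The lists hold only genotype-specific peaks, so a marker gene without a peak may still be open. Most of the astrocyte and vascular markers had peaks too, so these counts give no check of the cell label, and the part of other cells in the results below was not tested.

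In all, 3 promoter windows of receptor genes were overlapped by a specific peak, and their sequences are shown because they are the places where the lists touch a start site of these genes. RefSeq promoter windows, 250 bases before to 50 bases after a start site, were at hand for 73 of the 101 genes, 93 windows in all. The overlapped windows were those of Adgrl1, which encodes latrophilin-1, in the cKO list (chr8:83899848-83900147, plus strand), of Gpr65, a proton-sensing receptor of immune cells, in the cWT list (chr12:98268385-98268684, plus strand), and of Gpr83, a neuropeptide receptor, in the cWT list (chr9:14859960-14860259, plus strand). The peaks covered all 300 bases of the Adgrl1 and Gpr65 windows and the last 131 bases, at the downstream end, of the Gpr83 window. The windows are printed from GRCm38.p6, 5′ to 3′ on the gene's strand, with matches to the motifs spelled out below in capitals.

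Adgrl1: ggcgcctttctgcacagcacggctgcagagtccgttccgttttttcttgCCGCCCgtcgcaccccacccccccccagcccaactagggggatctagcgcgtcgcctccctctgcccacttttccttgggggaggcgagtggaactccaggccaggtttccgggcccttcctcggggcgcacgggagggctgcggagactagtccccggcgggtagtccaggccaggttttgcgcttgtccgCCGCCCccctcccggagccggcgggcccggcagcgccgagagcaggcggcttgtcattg

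Gpr65: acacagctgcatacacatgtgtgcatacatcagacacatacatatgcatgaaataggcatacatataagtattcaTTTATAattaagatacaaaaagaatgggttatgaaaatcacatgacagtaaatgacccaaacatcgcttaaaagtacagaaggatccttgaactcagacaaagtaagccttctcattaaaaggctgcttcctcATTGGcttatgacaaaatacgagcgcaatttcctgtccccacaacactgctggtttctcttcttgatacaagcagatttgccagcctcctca

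Gpr83: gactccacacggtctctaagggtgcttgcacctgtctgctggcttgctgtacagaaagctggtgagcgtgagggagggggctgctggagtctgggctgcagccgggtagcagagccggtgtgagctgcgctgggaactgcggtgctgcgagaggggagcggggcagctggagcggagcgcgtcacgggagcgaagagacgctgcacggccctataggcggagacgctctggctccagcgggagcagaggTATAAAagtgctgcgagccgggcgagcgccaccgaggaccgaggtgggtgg

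The 3 windows differed in base composition. G and C made up 70.0% of the Adgrl1 window, which holds 28 CG pairs, 67.0% of the Gpr83 window, with 24 CG pairs, and 38.3% of the Gpr65 window, with 3 CG pairs. The median over 21263 windows of coding genes was 56.3% G and C and 13 CG pairs. Thus the cKO-specific peak at Adgrl1 and the cWT-specific peak at Gpr83 covered CG-rich start sites, and the cWT-specific peak at Gpr65 a CG-poor one.

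The letters searched, on both strands, were the GC box GGGCGG, the CCAAT box CCAAT, the TATA box TATAAA, the ETS motif CCGGAAGT, the PU.1 motif GAGGAAGT, which shares its last 6 letters with the ETS motif, the RUNX motif TGTGGTT, the AP-1 motif TGACTCA and the cyclic AMP response element TGACGTCA. The Adgrl1 window held 2 GC boxes, a motif found in 46.2% of coding promoter windows. In the Gpr65 window there was 1 CCAAT box (38.2% of windows) and 1 TATA box match (12.6%), the latter starting 175 bases before the start site. The Gpr83 window held 1 match to the TATA letters, beginning at the base just before the start site. The other letters were not found in these 3 windows; among the 93 receptor gene windows 5 held the PU.1 letters (5.38%, against 3.13% of all coding windows), 6 the RUNX letters (6.45%, against 4.71%) and 7 the AP-1 letters (7.53%, against 4.66%). The ETS letters were in 1 window (1.08%, against 5.15%) and the cyclic AMP response element in 1 (1.08%, against 2.23%). The GC box was in 41.9% of receptor gene windows, the CCAAT box in 38.7% and the TATA box in 9.68%; these shares are a description without a test.

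The microRNA removed in the cKO mice was also compared with these windows. Its 3p arm is printed with the seed, bases 2 to 8, in capitals, since the seed is the part that pairs with a target.

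mmu-miR-137-3p: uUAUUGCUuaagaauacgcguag

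The DNA letters that pair with this seed, AGCAATA, occur on either strand in 359 of the 21263 coding windows (1.69%) and in 2 of the 93 receptor gene windows, those of Adgrl4 and Gpr183. They were not found in the Adgrl1, Gpr65 and Gpr83 windows shown. The seed pairs with RNA, while these windows are DNA that lies mostly before a start site. Matches in them, or their absence, therefore cannot show which genes are targets of the microRNA. Adgrl4, an endothelial adhesion receptor gene, had 0 peaks in either list, and Gpr183 had 1 cWT-specific peak, which lay outside its window.

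The receptor genes as a group were close to coding genes in general. At least 1 cKO-specific peak was found for 23 of the 101 genes (22.8%), against 22.5% of all coding genes, and at least 1 cWT-specific peak for 13 of them (12.9%), against 11.4%. A peak of either list was assigned to 32 genes (31.7%), against 27.9%. At least 3 peaks were assigned to 5 genes (4.95%), against 5.35% of coding genes. None of these shares sets the receptor genes apart from the background.

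Of the 32 genes, 19 had only cKO-specific peaks, 9 only cWT-specific peaks and 4 both (Adgre5, Adgrg1, Adgrv1 and Gpr65), and 69 genes had none. The 51 peaks were 36 cKO-specific and 15 cWT-specific, a ratio of 2.4 with an exact (Clopper-Pearson) 95% interval of 1.28 to 4.72. Over all assigned peaks the ratio was 2.54 (2.43 to 2.64), inside that interval. The surplus of cKO-specific peaks at these genes was thus of the size seen in the lists as a whole, and the depth of the libraries and the genotype cannot be told apart as its source. The receptor genes held 3.59 cKO-specific and 1.5 cWT-specific peaks per Mb of sequence nearest to their ends, against 4.65 and 1.83 per Mb over all coding genes.

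**Figure D1:**
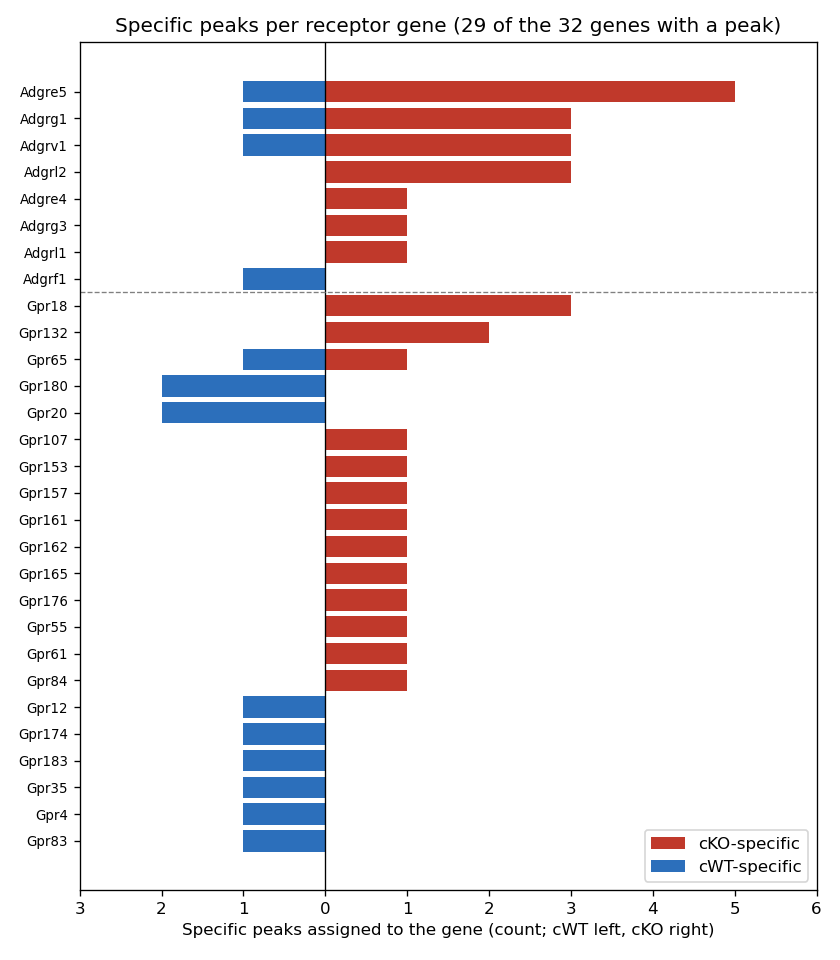
Number of cKO-specific peaks (red, to the right) and cWT-specific peaks (blue, to the left) assigned to each of 29 of the 32 receptor genes with a peak, adhesion genes above the dashed line and numbered Gpr genes below it; bars are counts and have no error. Adgre5 has the longest bar with 5 cKO-specific peaks, and Gpr180 and Gpr20 have 2 cWT-specific peaks each.

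At the adhesion receptor genes lay 17 cKO-specific and 4 cWT-specific peaks, and at the numbered Gpr genes 19 and 11. The ratios, 4.25 (exact 95% interval 1.39 to 17.4) and 1.73 (0.781 to 4.02), have overlapping intervals, and the difference between the classes was not tested. The adhesion genes are longer, with a median length of 73.3 kb against 11.5 kb. Of the 27 adhesion genes 8 had a peak (29.6%), and of the 74 numbered Gpr genes 24 (32.4%).

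Among the adhesion receptor genes taken by symbol, the peaks fell on 5 of the 8 subfamilies that the Adgr symbols cover: E, F, G, L and V. Adgre5 encodes CD97, a leukocyte receptor that binds the complement regulator CD55, and had 5 cKO-specific peaks and 1 cWT-specific peak, the highest count of the 101 genes. With noncoding genes also allowed as the nearest gene, it kept 1 cKO-specific and 0 cWT-specific peaks. Its cKO share of 83.3% (5 of 6 peaks, exact 95% interval 35.9 to 99.6%) does not stand apart from the 71.7% of all assigned peaks. The gene spans chr8:83723245-83741311. Inside it lay 3 cKO-specific peaks: chr8:83724788-83725030 with an authors' signal of 11.3, chr8:83738264-83738499 with 13.3 and chr8:83740053-83740362 with 10.4. The first of these lay also within the overlapping gene Ddx39a, 1995 bp from its end and 1664 bp from an end of Adgre5, so either gene could be named for it.

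The fourth Adgre5 peak, chr8:83742286-83742568 (signal 13.5), lay just outside the gene, 1116 bp from its end. These 4 peaks carry consecutive numbers, 30106 to 30109, in the cKO list's own numbering, which runs along the chromosome. The genotype-specific peaks thus formed an unbroken run over the gene. By signal the peaks of this run lay low in the cKO list, at percentiles 15.3 to 32.7. Farther out, a cWT-specific peak lay 27519 bp from the gene (chr8:83768714-83768947, signal 12.2) and a cKO-specific peak 42037 bp from it (chr8:83783232-83783464, signal 19.6). The authors' p-values of the 5 cKO-specific peaks ran from 0.745 to 0.913, on both sides of the cKO list's median of 0.818.

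The other members of the subfamily E are macrophage genes. Adgre4 had 1 cKO-specific peak, 13105 bp from its end (chr17:55736766-55736992, signal 24.5), and Adgre1, which encodes the macrophage marker F4/80, had 0 peaks in either list.

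Adgrg1 encodes GPR56, which binds collagen and transglutaminase and, on microglia, phosphatidylserine on synapses; it had 3 cKO-specific peaks and 1 cWT-specific peak, and 0 of either where noncoding genes could be the nearest gene. The gene spans chr8:94974756-95014208 on the plus strand. The peak before the gene, chr8:94966611-94967035, lay 7933 bp before the gene's 5′ end. It had the highest signal of the 36 cKO-specific receptor gene peaks, 32.7, at the 96.2 percentile of the cKO list, with a p-value of 0.640. Inside the gene a cKO-specific peak (chr8:95000265-95000661, signal 16.1, p-value 0.616) and the cWT-specific peak (chr8:95000717-95000935, signal 9.39, p-value 0.819) lay side by side, 55 bp apart. This was the closest approach of the lists at any of the 101 genes, and whether these neighbours belong to 1 open region was not tested. The last cKO-specific peak, chr8:95009341-95009608, had a signal of 8.42.

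Next to Adgrg1 lies Adgrg3, a receptor gene of leukocytes, with 1 cKO-specific peak inside the gene (chr8:95024426-95024925, signal 17.9). Adgrg5, on the other side of Adgrg1, had 0 peaks in either list, as did Adgrg2, Adgrg4, Adgrg6 and Adgrg7. Chromosome 8 held 10 of the 36 cKO-specific and 2 of the 15 cWT-specific peaks with 6 of the 101 genes, since the Adgre5, Adgrl1 and Adgrg1 loci all lie there.

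The latrophilins, subfamily L, bind teneurins and FLRT proteins on neighbouring cells and are best known at synapses. Adgrl1 had the start-site peak whose window is printed above: chr8:83899192-83900200, 1009 bp wide, the widest of the 51 peaks, with a signal of 22.0 and a p-value of 0.303. Adgrl2 had 3 peaks, all in the cKO list: 1 lay 9642 bp beyond the gene's far end (chr3:148805715-148806173, signal 13.2) and 2 inside the gene (chr3:148867703-148868069, signal 8.34, and chr3:148933224-148933523, signal 22.9), the nearest 21262 bp from a start site. All 4 latrophilin peaks were cKO-specific, against a cKO share of 71.7% over all assigned peaks. With 4 peaks this is a description and does not set the latrophilins apart from that share. Adgrl3 and Adgrl4 had 0 peaks in either list.

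**Figure D2:**
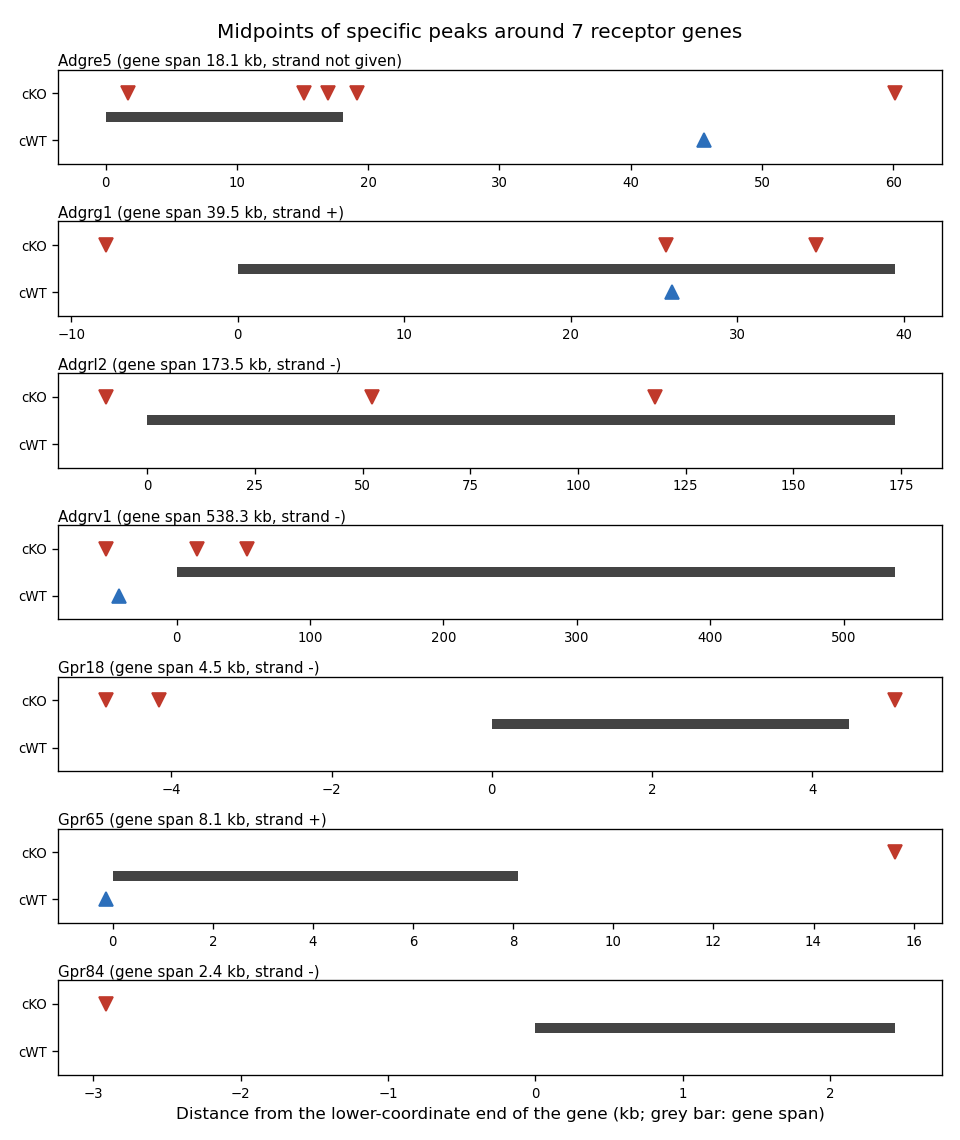
Midpoints of the specific peaks assigned to 7 receptor genes, cKO-specific as red triangles above and cWT-specific as blue triangles below the grey bar of the gene span; the x axis of each panel gives kb from the gene's lower-coordinate end on its own scale. Adgre5 has 4 cKO-specific peaks in and just beside the gene, and at Adgrg1 a cKO-specific and a cWT-specific midpoint nearly coincide.

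Adgrv1, the gene of a very large receptor mutated in Usher syndrome, had 3 cKO-specific peaks and 1 cWT-specific peak, and likewise 0 of either with noncoding genes included. All 4 lay around its far end, 485143 to 591397 bp from the start site, with 2 of the cKO-specific peaks inside the gene (chr13:81109826-81110440, signal 22.4, and chr13:81147909-81148094, signal 15.5). Outside it a cKO-specific peak (chr13:81041637-81041858, signal 8.91) and the cWT-specific peak (chr13:81051591-81051883, signal 10.1) were 9732 bp apart. Adgrf1, a receptor for a docosahexaenoic acid derivative, had 1 cWT-specific peak 40219 bp away (chr17:43229890-43230239, signal 18.9, p-value 0.750). Subfamilies A, B and D, 7 genes in all, had 0 peaks in either list, where 27.9% of all coding genes had a peak. With 7 genes this is a description. Among these genes is Adgrb1, the gene of BAI1, which recognises phosphatidylserine on dying cells.

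The numbered Gpr genes include proton-sensing receptors, which report acidity outside the cell. Gpr65 had its cWT-specific peak over the start site (chr12:98268292-98268696, signal 13, p-value 0.757), with the midpoint 141 bp before it, and a cKO-specific peak 7533 bp beyond its other end (chr12:98284166-98284345, signal 14.8, p-value 0.787). The gene's start site thus carried a peak of the controls and the stretch behind the gene a peak of the knockout, 15469 bp apart. Gpr132, which encodes a lipid- and proton-responsive receptor, had 2 cKO-specific peaks, consecutive in the cKO numbering. They lay 5283 and 7359 bp before the gene's 5′ end (chr12:112873553-112873846, signal 11.1, and chr12:112875668-112875882, signal 17.1). Gpr4 had 1 cWT-specific peak inside the gene (chr7:19217590-19217902, signal 16.0).

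Of 11 genes listed as lipid and metabolite receptors, 7 had a peak (63.6%, against 27.9% of all coding genes, a description without a test), 4 only cKO-specific and 3 only cWT-specific ones. Gpr84, a receptor for medium-chain fatty acids that activated microglia are known to induce, had the lowest p-value of the 51 peaks: 0.0876 at chr15:103305011-103305621, rank 46 of 8615 in the cKO list, with a signal of 26.0 and, in the authors' deposited table, an adjusted p-value of 0.707. This peak is 611 bp wide and lies 2917 bp beyond the gene's far end, 5122 bp from its start site; the next coding gene, Copz1, has its nearest end 5451 bp away. It was 1 of 2 receptor gene peaks that the authors named primary. The p-value and the adjusted p-value are those of the authors' deposited table, in which the test behind them is not named.

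Gpr18, a receptor gene of immune cells with proposed lipid ligands, had 3 cKO-specific and 0 cWT-specific peaks. The strongest, chr14:121916160-121916767, lay 575 bp before the start site with a signal of 28.9 and a p-value of 0.271, rank 327 of 8615. The others, chr14:121906503-121906727 (signal 20.1) and chr14:121907155-121907417 (signal 20.8), lay 4819 and 4148 bp beyond the other end. All 3 are consecutive in the cKO numbering, from 10446 to 10448 over 10.3 kb, and all lie inside the much longer gene Ubac2, in whose span both Gpr18 and Gpr183 sit.

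Gpr183, the oxysterol receptor gene in the same span, had 1 cWT-specific and 0 cKO-specific peaks (chr14:121962481-121962745, inside the gene and 2580 bp from its start site). Its signal of 4.60 was the lowest of the 15 cWT-specific receptor gene peaks and its p-value was 0.976. The pair of neighbours therefore carried peaks of different lists, at Gpr18 in the upper part of the cKO list by signal (percentiles 70.4 to 92.7) and at Gpr183 at the bottom of the cWT list. Gpr35, a receptor linked to kynurenic acid, had 1 cWT-specific peak 6182 bp away (chr1:92992490-92992657, signal 17.9). Gpr174, a lysophosphatidylserine receptor gene, had 1 cWT-specific peak 33319 bp away (chrX:107329952-107330228, signal 18.2, p-value 0.779).

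Gpr55, a lysophosphatidylinositol receptor gene, had 1 cKO-specific peak inside the gene, 1214 bp from a start site (chr1:85962159-85962380, signal 18). Gpr31b, Gpr45, Gpr82 and Gpr119 had 0 peaks in either list.

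The remaining peaks at gene ends were at Gpr180, Gpr20, Gpr153, Gpr162 and Gpr83. Gpr180, which encodes a membrane protein that is not a classical receptor, had 2 cWT-specific peaks. The first, chr14:118137453-118137667, lay inside the gene 433 bp from the start site with a signal of 29.3 and a p-value of 0.191, rank 32 of 3490; it had the lowest p-value of the 15 cWT-specific peaks and was the other one named primary. The second was 16802 bp beyond the other end (chr14:118180935-118181134, signal 11.5). Gpr20, an orphan receptor gene, had a pair of cWT-specific peaks, 906 and 687 bp from its end (chr15:73687488-73687695 and chr15:73687696-73687924). These adjoin without a gap and have the same signal, 16.9, and they count as 1 region when peaks within 500 bp are merged.

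Gpr153 and Gpr162, both orphans, had 1 cKO-specific peak each inside the gene, 844 and 335 bp from an end (chr4:152274747-152275154, signal 9.78, and chr6:124863669-124864052, signal 19.1). The Gpr162 peak is also 833 bp from an end of Cd4. Gpr83 had its cWT-specific peak 73 bp from the start site (chr9:14860129-14860437, signal 16.8, p-value 0.882).

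Further genes with 1 cKO-specific peak were Gpr61 (signal 25.2), Gpr107 (17.0), Gpr157 (14), Gpr161 (11.0), Gpr165 (10.9) and Gpr176 (22.4). The Gpr161 peak lay inside another gene, Tiprl, 28812 bp from an end of Gpr161 and 30287 bp from an end of Tiprl. Gpr12, a constitutively active cyclic AMP-linked orphan, had a cWT-specific one (16.8). The 4 genes listed for the oligodendrocyte lineage and astrocytes, Gpr17, Gpr37, Gpr37l1 and Gpr62, had 0 peaks in either list, and so had the 3 genes of the SREB orphans, Gpr27, Gpr85 and Gpr173. The genes Gpr137, Gpr137b and Gpr137c, which share only a number with the microRNA, also had 0. Only 27.9% of all coding genes had a peak, so counts of 0 in groups this small do not set them apart.

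By position, 4 of the 36 cKO-specific peaks (11.1%, exact 95% interval 3.11 to 26.1%) and 5 of the 15 cWT-specific peaks (33.3%, 11.8 to 61.6%) lay within 1000 bp of an end of the receptor gene. Over all assigned peaks these shares were 15.0% and 17.8%, inside both intervals. Those intervals count each peak alone, though 2 adjoining cWT-specific peaks at Gpr20 become 1 region when peaks within 500 bp are merged. The cWT-specific gene-end peaks were those of Gpr20 (2), Gpr65, Gpr83 and Gpr180, and the cKO-specific ones those of Adgrl1, Gpr18, Gpr153 and Gpr162. Of the other peaks, 18 lay inside the receptor gene itself, 4 inside another gene and 20 between genes. No receptor gene peak of 1 list overlapped a peak of the other list. The lists were deposited as specific to each genotype, so low overlap follows from their making and is no result about these genes.

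In signal, 19 of the 36 cKO-specific peaks were above the median of the cKO list and 9 of the 15 cWT-specific peaks above that of the cWT list. The median signal at the receptor genes was 17.1 in cKO and 16.8 in cWT, against 16.5 and 13.7 in the whole lists; the signal has no stated scale and was not compared between lists. The authors' p-values had medians of 0.780 and 0.868, against 0.818 and 0.886, and were up to 0.5 for 3 of the 36 cKO-specific peaks (Gpr84, Gpr18 and Adgrl1; 8.33%, against 12.1% of the whole list) and 1 of the 15 cWT-specific ones (Gpr180; 6.67%, against 6.16%). In the authors' deposited table the lowest adjusted p-value of a receptor gene peak was 0.707 among the cKO-specific and 0.955 among the cWT-specific ones.

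**Figure D3:**
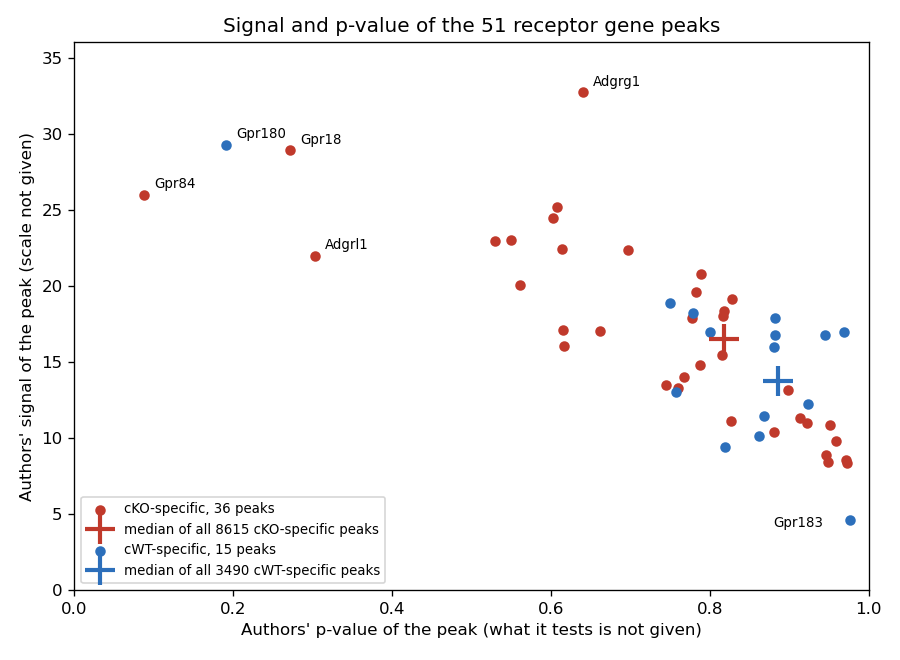
Authors' signal (y axis, scale not given) against the authors' p-value (x axis) of the 36 cKO-specific (red) and 15 cWT-specific (blue) receptor gene peaks; crosses mark the medians of each whole list. Gpr84, Gpr180, Gpr18 and Adgrl1 are the 4 peaks with a p-value up to 0.5, and the other 47 have p-values above 0.5 and signals from 4.60 to 32.7.

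Genes that work with these receptors were described in the same way. Of 40 genes of G proteins, arrestins and receptor kinases, 13 had a cKO-specific and 6 a cWT-specific peak (32.5% and 15.0%, against 22.5% and 11.4% of all coding genes), with 31 and 6 peaks in all, a ratio of 5.17 (exact 95% interval 2.12 to 15.1) against 2.54 over all assigned peaks. The difference was not tested. Ratios of the lists described next were nearer to 2.54: 2.42 for adhesion receptor ligands and effectors, 3 for chemokine receptors and 2.4 for other class A receptors. Gnaq, which encodes a G protein that activates phospholipase C, had 6 cKO-specific peaks and 1 cWT-specific peak, Gng2 had 5 and 0, and Gna12, which links receptors to the actin cytoskeleton, had 4 and 0. Of 42 ligand and effector genes of adhesion receptors, 16 had a cKO-specific and 9 a cWT-specific peak (38.1% and 21.4%, against the same 22.5% and 11.4%). The stretch of sequence nearest to their ends had a median of 117 kb per gene, against 46.4 kb over all coding genes. Per Mb of that sequence they held 4.20 cKO-specific and 1.74 cWT-specific peaks, against 4.65 and 1.83, so peaks were not denser at these genes. Rtn4rl1 had 2 cKO-specific and 3 cWT-specific peaks, Itgav 4 and 0, and Elmo1, an engulfment gene, 3 and 1.

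Other receptor genes are given beside the same shares of all coding genes, 22.5% and 11.4%. Of 23 chemokine receptor genes, 7 had a cKO-specific and 3 a cWT-specific peak (30.4% and 13%), led by Ccr2 with 1 and 1, and by Cxcr2 with 2 and 0. Of 40 other class A receptor genes listed for their use in microglia, 26 had a cKO-specific and 10 a cWT-specific peak (65.0% and 25.0%). P2ry12 had 3 and 2, S1pr1, a sphingosine phosphate receptor gene, 2 and 3, and Ptger3, a prostaglandin receptor gene, 3 and 1. That list was picked by microglial use and the orphan and adhesion genes by symbol alone, so the shares are set side by side without a test.

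**Figure D4:**
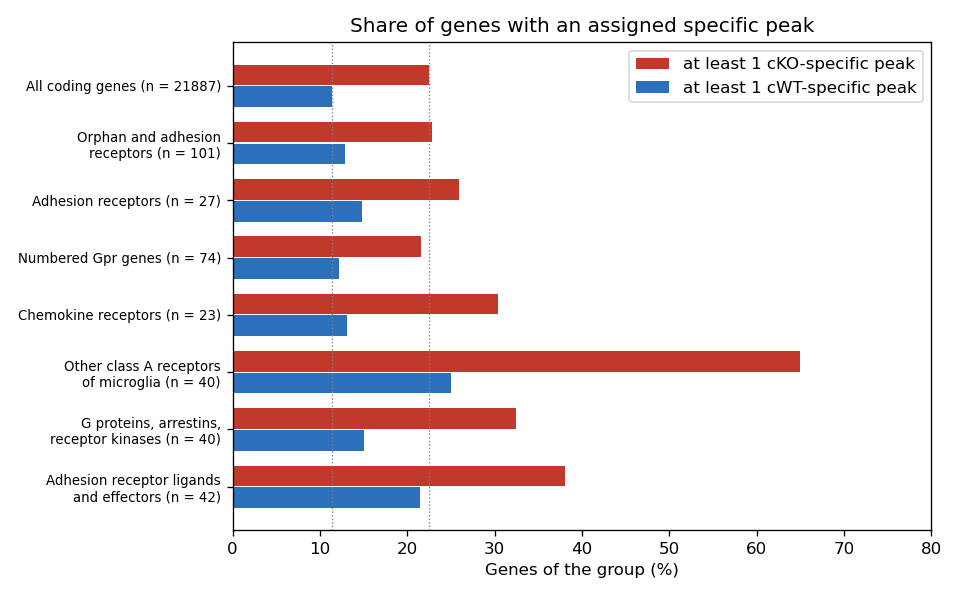
Share of the genes in each group (x axis, %) with at least 1 assigned cKO-specific peak (red) or cWT-specific peak (blue), n being the number of genes; dotted lines mark the shares of all coding genes, 22.5% and 11.4%. The orphan and adhesion receptor genes, at 22.8% and 12.9%, sit next to these lines, while the other class A receptors of microglia reach 65.0% and 25.0%.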

How the data were processed

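Sorted microglia of 3 cKO and 3 cWT libraries were profiled by ATAC-seq; grouping followed the sample titles. The submitters' processing notes name HOMER 4.11, MACS2 2.2.7.1, Bowtie2 2.4.4 and the builds GRCm38 and mm10. The role of each, the combination of replicates, any transposase shift and the rule for specific peaks are not given in the sources here. Each headerless list gives the signal the authors deposited (scale not stated), the p-value and adjusted p-value they deposited, and a score the authors deposited, which equals -125 times log2 of the p-value, rounded down, in all 12105 peaks. These readings rest on layout and values. Depth is unknown.

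Gene spans and promoter windows came from RefSeq, GRCm38.p6; all 101 symbols had a span, and 73 a window with strand. Peaks were assigned by midpoint; the assignment was tested on simulated data. Shares and ratios have exact Clopper-Pearson 95% intervals, and no p-value of a difference was computed. Named were genes with 3 or more peaks, genes with a peak within 1000 bp of their end, the 5 lowest p-values of each list and 14 genes chosen for their biology. Other members with a peak were added. Results of some genes that the rule names are not reported here, though the counts include them. The genes and all lists were chosen with earlier results of these data known. Python 3.11.15, numpy 2.4.6, pandas 2.3.3, scipy 1.17.1 and matplotlib 3.10.9 were used.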

Additional observations from a re-analysis of the deposited data

How the results depend on the processing

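The counts of receptor gene peaks depended on the assignment and the peak filter. With a limit of 10 kb 22 peaks of the cKO list and 8 of the cWT list were left, at 15 and 7 genes; with the nearest gene of any kind, 17 and 8 peaks at 13 and 7 genes. With p-values up to 0.5 there remained 3 and 1 peaks at 3 and 1 genes, and among peaks named primary 1 and 1 peaks at 1 and 1 genes, a ratio of 1. Peaks at gene ends numbered 10 in cKO with a window of 3000 bp, and 2 in cKO and 1 in cWT with p-values up to 0.5. Where a gene that spans the midpoint was preferred, Gpr18 had 0 peaks, since its peaks lie inside Ubac2. The Gpr161 peak, inside Tiprl, was likewise no longer counted for Gpr161. Counts without a distance limit or with peaks within 500 bp merged stayed within 1.5 times those reported. The overlap of 0 could only stay 0 under the stricter rule of 50% of the shorter peak. No paired analysis was possible because no value of a library is in the lists; for the same reason no library could be left out.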

Other observations

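Noncoding genes lie closer than the receptor gene to many of these peaks. Of the 51 peaks, 26 had a nearer end of a gene of another kind: 20 of a long noncoding RNA gene, 4 of a pseudogene, 1 of a microRNA gene and 1 of a small nucleolar RNA gene. At Gpr132 a cKO-specific peak lay 51 bp from an end of 1700127F24Rik, at Adgrl1 the start-site peak lay 31 bp from an end of Gm26721, and at Gpr176 the cKO-specific peak lay 234 bp from an end of 1700054M17Rik. All 4 Adgrg1 peaks and all 4 Adgrv1 peaks had a nearer noncoding gene or pseudogene, as had 5 of the 6 Adgre5 peaks, among them 1 beside the microRNA gene Mir1668 at 925 bp. The 3 Gpr18 peaks, the Gpr84 peak and both Gpr65 peaks kept the receptor gene as the nearest gene of any kind.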
